A study of Mus musculus with 54 samples.

Results

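The 41 proteasome subunit genes described here were all rows of a mouse single-cell count table whose symbols begin with Psma, Psmb, Psmc, Psmd or Psme followed by a number, other than Psmb8, Psmb9 and Psmb10, with a count in at least 5% of annotated cells. Among 23154 genes, 44 carried such a symbol, 3 of these were the immunoproteasome genes left out by name, and 0 fell under the 5% share. The members were 8 Psma and 8 Psmb genes of the core particle, 6 Psmc and 14 Psmd genes of the regulatory cap, and 5 Psme genes of the activators. Of the 41, 39 had a count in at least 50% of annotated cells, and the exceptions were Psma8 and Psmb11.

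The proteasome is the large protease that degrades proteins tagged with ubiquitin. Its barrel-shaped core is built of rings of alpha subunits (Psma genes), which gate the entrance, and rings of beta subunits (Psmb genes), of which the products of Psmb5, Psmb6 and Psmb7 cut peptide bonds. The cap binds ubiquitin chains, removes them, and unfolds the protein with a ring of ATPases (Psmc genes) held by scaffold, receptor and lid subunits (most Psmd genes). The activators (Psme genes) open the core without ubiquitin, and in immune cells Psmb8, Psmb9 and Psmb10 replace the catalytic beta subunits. Blood stem cells are known for a low rate of protein synthesis and a need for protein quality control.

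Single haematopoietic cells of C57BL/6 mice, 8 to 10 weeks old by the labels, were sequenced one by one with a Smart-seq2 variant enriched for 3' mRNA ends. The labels gave no genotype, and neither donor and recipient animals nor conditioning were described in the sources used here. Transplanted haematopoietic stem cells and their progeny were collected from bone marrow, spleen or both on day 1 (61 cells, 3 libraries), day 3 (125 cells, 3 libraries), day 5 (336 cells, 7 libraries) and day 7 (389 cells, 10 libraries). They were set against 305 steady state cells of 5 stem cell gates, called iHSC (12 libraries). The other steady state cells were the 9 multipotent progenitor gates called iMPP (508 cells, 17 libraries), committed progenitors (CMP, GMP and MEP, 65 cells, 2 libraries), erythroid cells (EryA and EryB, 70 cells, 3 libraries), myeloid cells (granulocytes, monocytes and macrophages, 106 cells, 3 libraries), lymphoid cells (CD4T, CD8T, B and NK cells, 167 cells, 4 libraries), common lymphoid progenitors (CLP, 30 cells, 2 libraries) and megakaryocytes (MK, 19 cells, 2 libraries).

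The annotation covered 2301 of 2879 cells, with 20013 to 1943315 counts per cell (median 203971). Sums per library and group ran from 517741 to 30433157 counts over the days and the steady state classes. Among transplanted cells of the predicted type tMPP2 the smallest sum was 435842 counts, in L88 (6 cells). The smallest day 1 library, L87, held 13 cells with a median of 1885 genes. Granulocyte markers such as S100a8 and S100a9 exceeded 5% of the counts in 41 of 70 erythroid cells, 10 of 19 MK cells, 47 of 106 myeloid cells, 7 of 61 day 1 cells and 67 of 389 day 7 cells, against 2 of 305 iHSC cells. In the erythroid libraries the granulocyte list reached 66273 to 188419 CPM (counts scaled to a library total of 1000000) and the erythroid list 1519 to 5139 CPM, while the adult globin genes were at 0 in every group. Cells sorted as macrophages carried 666 CPM of macrophage markers. The population names of L4 and L49 differed between label and annotation, and 14 libraries held more than 1 steady state class, so that sums of these classes were not fully independent.

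The sequences upstream of 4 genes are shown. Psmd14, Psmb3 and Psme3 are among the genes whose levels carry the day 7 and lineage results. Psmb5 encodes a catalytic subunit and carries the antioxidant response element through which Nfe2l1 is known to raise proteasome genes. Each run is the 250 bases before the RefSeq gene start in GRCm38.p6. Capitals mark CCAAT, the box bound by the factor NF-Y, in Psmd14, Psmb3 and Psme3, and TGACNNNGC, the antioxidant response element, in Psmb5. Both were searched on both strands, where CCAAT reads ATTGG. The coordinates are chr2:61711444-61711693 (plus strand) for Psmd14, chr11:97703184-97703433 (plus strand) for Psmb3, chr11:101315963-101316212 (plus strand) for Psme3 and chr14:54617996-54618245 (minus strand) for Psmb5.
Psmd14: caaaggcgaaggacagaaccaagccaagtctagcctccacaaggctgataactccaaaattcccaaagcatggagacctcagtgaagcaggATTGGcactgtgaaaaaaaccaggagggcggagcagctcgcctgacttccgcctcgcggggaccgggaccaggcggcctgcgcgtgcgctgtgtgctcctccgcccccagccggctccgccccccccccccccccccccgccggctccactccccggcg
Psmb3: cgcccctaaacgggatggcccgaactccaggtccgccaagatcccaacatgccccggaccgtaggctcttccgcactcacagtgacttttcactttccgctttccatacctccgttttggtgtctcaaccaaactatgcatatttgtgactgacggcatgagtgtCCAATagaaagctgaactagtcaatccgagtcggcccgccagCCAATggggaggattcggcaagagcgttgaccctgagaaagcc
Psme3: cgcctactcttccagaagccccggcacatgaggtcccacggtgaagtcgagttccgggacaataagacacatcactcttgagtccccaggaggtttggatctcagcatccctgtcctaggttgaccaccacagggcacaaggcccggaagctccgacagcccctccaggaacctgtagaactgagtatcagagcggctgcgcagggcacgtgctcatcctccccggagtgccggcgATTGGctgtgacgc
Psmb5: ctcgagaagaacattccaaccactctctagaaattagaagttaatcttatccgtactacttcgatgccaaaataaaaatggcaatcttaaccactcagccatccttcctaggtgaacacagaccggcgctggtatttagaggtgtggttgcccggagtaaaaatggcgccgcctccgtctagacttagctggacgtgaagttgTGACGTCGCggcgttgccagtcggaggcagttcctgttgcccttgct

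Upstream sequence was matched for 34 of the 41 members. Psma8, Psmb1, Psmb2, Psmb7, Psmc3, Psmd3 and Psmd7 were not matched. The element TGACNNNGC lay in 5 of the 34 (14.7%), against 10.2% of 32851 windows of the same length. For the members only the window nearest the GENCODE start of each gene was kept. The 32851 windows were not reduced in this way, so the shares come from unlike sets. The 5 members with the element were Psmb5, Psmb6, Psmc6, Psmd9 and Psmd12. The Psmd9 window, however, lies 58777 bases from the GENCODE start of the gene, and those of Psmb11 and Psmd5 lie 3877 and 4006 bases from theirs. The windows of Psmd9, Psmb11, Psmd5, Psme1 and Psmd13 lie inside the GENCODE span of the gene itself. CCAAT lay in 13 of the 34 (38.2%), against 33.9% of all windows, and in Psmb3 it occurred at 85 and 43 bases before the start. A match describes the letters in a window and not a bound site.

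The members were spread over the genome, with 9 on chromosome 11, 6 on chromosome 14 and Psmd10 on chromosome X. On chromosome 14, Psmb5 (GRCm38 54614119 to 54618022) neighboured Psmb11 (54621433 to 54629556), and Psme1 (55578123 to 55581529) neighboured Psme2 (55587441 to 55591113). Of the 10 members whose span overlapped another protein-coding gene, Psmb7, Psmd9 and Psmd13 overlapped Nek6, Hpd and Sirt3 on the opposite strand. Whether counting used the strand was not stated, so reads of such pairs could not be told apart. Psme2b, whose transcript has 837 bases, lies on chromosome 11 (48945354 to 48946190), and 68.7% of its 50-base runs occurred in the Psme2 transcript. The split of counts between Psme2 and Psme2b is therefore uncertain.

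On day 7 after transplantation 24 of 41 proteasome genes were higher than in iHSC and 0 were lower, in edgeR's quasi-likelihood test over all genes with an adjusted p under 0.05. Of all 13353 genes tested in this comparison 20.8% were called, 10.4% as higher and 10.4% as lower. The 24 comprised 10 of 16 core genes, 13 of 20 cap genes and 1 of 5 activator genes. The median log2 change was 0.70 over the members, against -0.10 over all genes tested. It was 0.61 for the core, 0.78 for the cap and 0.03 for the activators. The levels are CPM in sums over cells, which do not tell more cells with a high level apart from a higher level in each cell.

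The summed level of the 16 core genes had a median of 7909 CPM in day 7 libraries (lowest 6216, highest 9653), against 4742 CPM in iHSC libraries (lowest 3646, highest 7074). Cap genes summed to 3719 CPM on day 7 (2719 to 4258), against 2108 CPM in iHSC (1671 to 2981). The highest iHSC library overlapped the day 7 range for the core, and the 2 highest did so for the cap. The activator genes summed to 977 CPM on day 7 (750 to 1295) and 987 CPM in iHSC (865 to 1240), so that these groups lay on top of each other.

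In time order the median core sum was 4742 CPM in iHSC, 5112 on day 1, 6038 on day 3, 6670 on day 5 and 7909 on day 7. The cap sum followed with 2108, 2477, 2848, 3194 and 3719 CPM. The activator sum did not follow this order, at 987, 989, 1213, 1192 and 977 CPM. With TMM scaling, which divides each library by a composition factor, the core medians were 5104, 4392, 5382, 6893 and 8546 CPM, so that day 1 lay below iHSC on that scale and day 3, day 5 and day 7 above it on both. The day 1 libraries were far apart, from 2965 to 7637 CPM for the core, and the lowest was L87, the only day 1 library labelled bone marrow. Within libraries labelled bone marrow and spleen the core medians were 4742 CPM in iHSC, 6374 on day 1, 6038 on day 3, 7505 on day 5 and 8023 on day 7. There day 1 lay above day 3, also for the cap (3156 and 2848 CPM). Day 1 and day 5 had 2 such libraries each. The summed level of 17 proliferation genes had medians of 956 CPM in iHSC, 3975 on day 1, 4212 on day 3, 3986 on day 5 and 3919 on day 7. In steady state its medians were 4233 CPM in iMPP, 3441 in committed, 6242 in erythroid, 2303 in myeloid and 408 in lymphoid cells. Its part in the proteasome result was not tested.

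**Figure D1:**
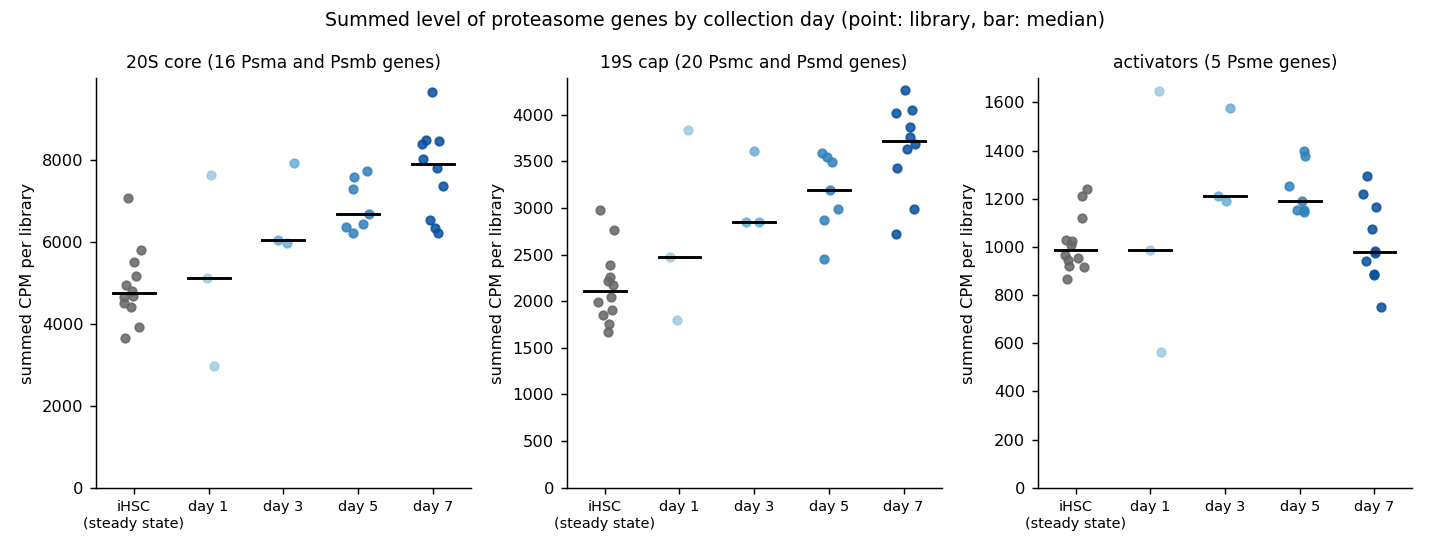
Summed CPM (y axis) of core, cap and activator genes by group (x axis), where each point is a library and each bar the median. The core bars stand at 4742, 5112, 6038, 6670 and 7909 CPM from iHSC to day 7, while the activator bars of day 7 and iHSC stand at 977 and 987 CPM.

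Among the catalytic subunits, Psmb7, which carries the trypsin-like activity, was 277 to 572 CPM (median 363) on day 7, against 57.3 to 226 CPM (median 153) in iHSC. Every day 7 library lay above every iHSC library. The log2 change was 1.29 (SE 0.19, edgeR adjusted p = 4.89e-06). Psmb5, the chymotrypsin-like subunit, was 374 to 671 CPM (median 513) on day 7 and 149 to 718 CPM (median 304) in iHSC. Psmb6, the caspase-like subunit, was 408 to 911 CPM (median 494) on day 7 and 239 to 588 CPM (median 386) in iHSC. Neither passed the test (Psmb5 log2 0.57, adjusted p = 0.0684; Psmb6 log2 0.49, adjusted p = 0.0562), although all 10 day 7 libraries lay above the iHSC median for both. The difference between Psmb7 and these 2 genes was not tested.

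Psmb3, a non-catalytic beta subunit, was 489 to 981 CPM (median 709) on day 7, against 166 to 654 CPM (median 282) in iHSC (log2 1.13, SE 0.19, adjusted p = 3.41e-05). In the alpha ring, Psma1 was 418 to 800 CPM (median 610) on day 7, against 208 to 589 CPM (median 311) in iHSC, a log2 change of 0.86 (adjusted p = 0.00214). Of the 8 Psma genes 6 were called, Psma1 to Psma6, with log2 changes from 0.65 to 0.86. Psma7, another ring subunit, was 728 to 1299 CPM on day 7 and 358 to 1574 CPM in iHSC, and did not pass (log2 0.48, adjusted p = 0.0790).

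The cap gene with the largest change was Psmd14, the deubiquitinase that cuts ubiquitin chains off the substrate, whose upstream run is printed above. It was 209 to 367 CPM (median 292) on day 7, against 15.3 to 205 CPM (median 98.3) in iHSC, with no overlap between the groups (log2 1.52, SE 0.29, adjusted p = 0.000173). Psmd2, the scaffold of the base that also binds ubiquitin shuttle proteins, was 149 to 275 CPM (median 187) on day 7, against 22.1 to 117 CPM (median 90.1) in iHSC. These groups did not overlap either (log2 1.21, SE 0.22, adjusted p = 0.000111). Psmd1, the other large scaffold, was 90.9 to 271 CPM on day 7, against 3.82 to 152 CPM in iHSC (log2 1.06, adjusted p = 0.0142).

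Psmd4, a ubiquitin receptor, had a log2 change of 0.57 (adjusted p = 0.0433), with 192 to 378 CPM on day 7 and 99.6 to 282 CPM in iHSC. This call was made in 3 of 11 alternative settings and 6 of 22 refits without 1 library. Of the ATPase genes 5 of 6 were called, of which Psmc2 and Psmc4 were called in 4 and 5 of 11 alternative settings and in 6 of 22 refits each. Psmc1 was 213 to 370 CPM on day 7 and 29.1 to 323 CPM in iHSC (log2 0.82, adjusted p = 0.0124), and Psmc4 was 157 to 312 CPM on day 7 and 57.3 to 373 CPM in iHSC (log2 0.76, adjusted p = 0.0419). Psmd13, a lid subunit, had a log2 change of 1.5 (SE 0.54, adjusted p = 0.0416), with 27.7 to 112 CPM on day 7 against 0 to 60 CPM in iHSC, where 2 of 12 libraries were at 0. Its call was made again in 7 of 22 refits that each left out 1 library. The lid gene Psmd11 differed little, at 38 to 110 CPM on day 7 and 1.91 to 152 CPM in iHSC (log2 0.29, adjusted p = 0.646).

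The chaperones that assemble the base and leave it before the particle works are encoded by Psmd5, Psmd9 and Psmd10. None of these 3 genes passed on day 7. Psmd9 was 52.1 to 98.3 CPM on day 7 and 5.73 to 108 CPM in iHSC (log2 0.80, adjusted p = 0.130). Psmd5 had a log2 change of 0.28 (95% interval -0.34 to 0.90) and Psmd10 of 0.19 (-0.41 to 0.78).

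Among the activators Psme3, the nuclear PA28 gamma, was the called gene. It was 46.6 to 157 CPM (median 91.2) on day 7, against 12.4 to 80.4 CPM (median 37.8) in iHSC (log2 1.39, SE 0.29, adjusted p = 0.000668). Psme1 and Psme2, which encode the interferon-inducible PA28 alpha and beta, were not called. Psme1 was 313 to 573 CPM on day 7 and 422 to 931 CPM in iHSC, with all 10 day 7 libraries below the iHSC median (log2 -0.38, adjusted p = 0.137). It was called as lower with the RLE and DESeq2 scalings, which also lowered the median of all genes to -0.31. Psme2 was 306 to 658 CPM on day 7 and 187 to 625.3 CPM in iHSC (log2 0.40, adjusted p = 0.167). Psme4, the PA200 activator, showed a log2 change of 0.03 (95% interval -0.79 to 0.84).

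**Figure D2:**
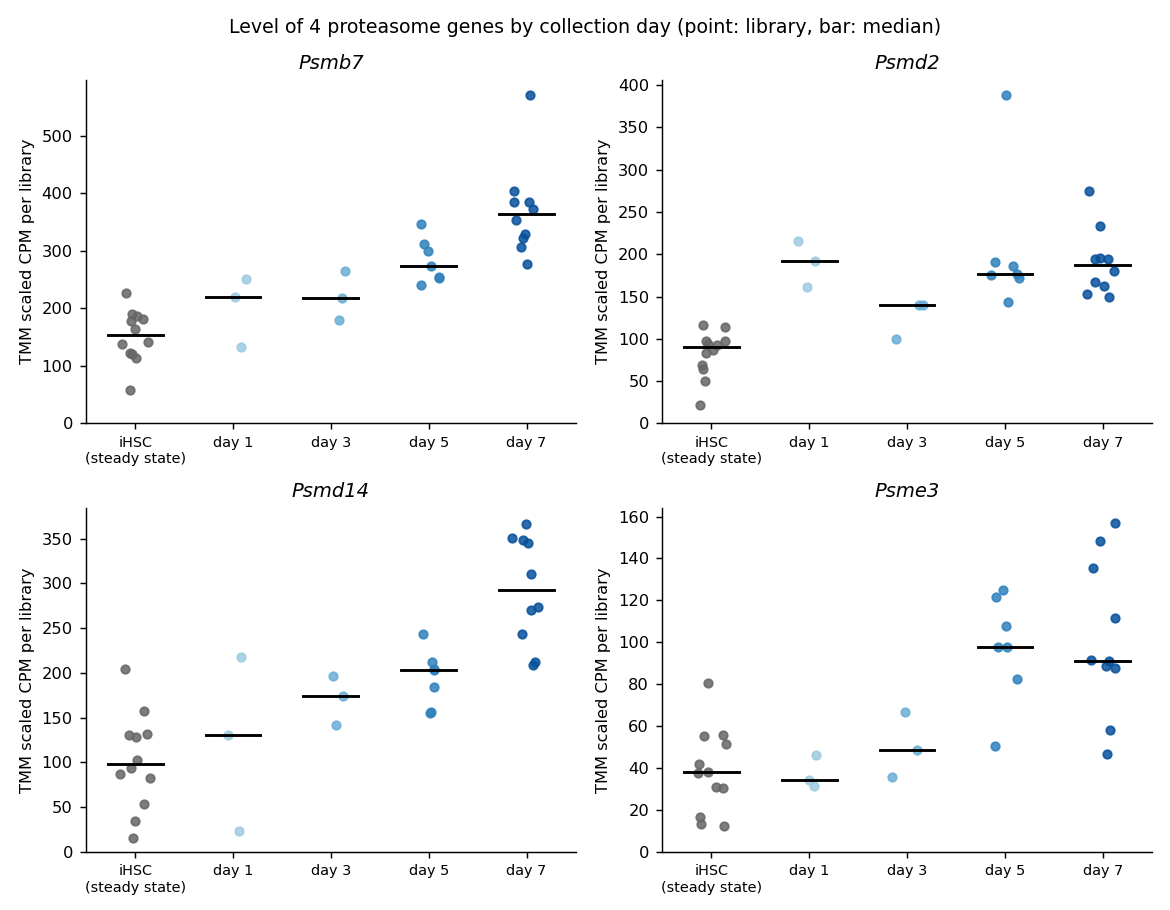
TMM-scaled CPM (y axis) of Psmb7, Psmd2, Psmd14 and Psme3 by group (x axis), where each point is a library and each bar the median. All 10 day 7 points lie above all 12 iHSC points for Psmb7, Psmd2 and Psmd14, and overlap with them for Psme3.

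The testis-specific alpha subunit Psma8 and the thymus-specific beta subunit Psmb11 were read at low levels. Psma8 was 0 to 17.5 CPM on day 7, with 3 of 10 libraries at 0, and 0 to 78.3 CPM in iHSC, with 3 of 12 at 0 (adjusted p = 0.0599). Psmb11 was 0.7 to 3.3 CPM on day 7 and 0.9 to 7.1 CPM in iHSC.

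Several alternatives changed how many members were called on day 7. The count was 15 without L49, a day 7 library of 5 cells, and 15 when the 2 groups were fitted alone. RLE scaling gave 15 higher and 2 lower members, DESeq2 17 higher and 2 lower, and the fit without the 2-group libraries 16 higher and 0 lower. A limma voom fit with the library as a random block called 34 as higher and 1 as lower. In that fit the median change was 0.94 over the members and 0.16 over all genes. The share of all genes called in each alternative setting is not given here, so these counts cannot be set against it. Day 7 cells of the stem and multipotent predicted types alone gave 27 calls, and cells with at most 5% granulocyte markers gave 23. The calls of 12 members (Psma1, Psma2, Psma5, Psma6, Psmb3, Psmb7, Psmc5, Psmc6, Psmd2, Psmd6, Psmd14 and Psme3) were made in all 11 alternative settings and all 22 refits without 1 library. Within the libraries labelled bone marrow and spleen 23 members were called. The summed stem cell marker list had a median of 120 CPM on day 7 and 950 CPM in iHSC, and the granulocyte list 9811 CPM on day 7 and 104 CPM in iHSC.

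On day 1 the only called member was Psmd2, against 3.14% of all genes tested (2.34% higher, 0.801% lower). It was 161, 192 and 216 CPM in the 3 day 1 libraries, all above the highest iHSC value of 117 CPM (log2 1.20, SE 0.31, adjusted p = 0.0207). The call was lost without L83, without L87, in the voom fit, after thinning, when both groups were fitted alone, within the libraries labelled bone marrow and spleen, and in the stem and multipotent predicted types alone. The median change of the members was -0.06, against -0.26 over all genes. Within the libraries labelled bone marrow and spleen it was 0.35 (all genes -0.12), and in the stem and multipotent predicted types alone 0.17 (all genes -0.24). Without cells over 5% granulocyte markers it was -0.17 (all genes -0.325). Day 1 libraries held 2182 to 119214 CPM of the granulocyte list (median 5835) and 618 CPM of the macrophage list, against medians of 104 and 44.1 CPM in iHSC, and their part in the result was not tested. On day 3 edgeR called 0 members, against 1.12% of all genes (1.01% higher, 0.105% lower). The voom fit called 1, and DESeq2 0. At an unadjusted edgeR p under 0.05, 2 members passed (Psmd13 and Psma4). The share of all genes at that unadjusted threshold is not given here. Psmd13 was 129, 74.4 and 55.6 CPM in L79, L85 and L89, the day 3 libraries. Its highest iHSC values were 60 CPM in L81 and 58.7 CPM in L1. In transplanted cells of the predicted type tMPP2 it was also high in libraries numbered L77 to L89 (54.3 to 178 CPM). The part of the library number was not tested.

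On day 5, 4 members were higher than in iHSC and 0 lower, against 7.57% of all genes tested (4.28% higher, 3.29% lower). Psmd2 was 144 to 388 CPM on day 5 (log2 1.31, adjusted p = 0.000408) and Psmb7 241 to 346 CPM (log2 0.90, adjusted p = 0.00411), and for both genes every day 5 library lay above every iHSC library. Psme3 was 50.7 to 125 CPM on day 5 (log2 1.33, adjusted p = 0.00605) and Psmb3 430 to 703 CPM (log2 0.71, adjusted p = 0.0250). The Psmb3 call was lost with RLE scaling, with at least 10 cells per sum, with both groups fitted alone and without L66, a library of 8 cells. The voom fit called 21 members, with a median change of 0.60 over the members and 0.23 over all genes. Within the libraries labelled bone marrow and spleen, of which day 5 had 2, 0 were called. The core sum of the 4 day 5 spleen libraries, which include L66, was 6205 to 6670 CPM. It was 7282 and 7729 CPM in the 2 mixed libraries and 7583 CPM in L72, the bone marrow library. All comparisons with iHSC share the same 12 iHSC libraries, so they are not independent of each other.

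Between successive days edgeR called 0 members for day 3 against day 1 (0% of all genes), 0 for day 5 against day 3 (0% of all genes) and 0 for day 7 against day 5 (0.404% of all genes, 0.247% higher and 0.157% lower). At an unadjusted p under 0.05 the numbers were 0, 0 and 3 (Psmd4, Psmd6 and Psma6), and the share of all genes at that threshold is not given here. DESeq2 called 0 in each, and the voom fit 0, 0 and 3. The median member change for day 7 against day 5 was 0.35, against 0.01 over all genes.

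**Figure D3:**
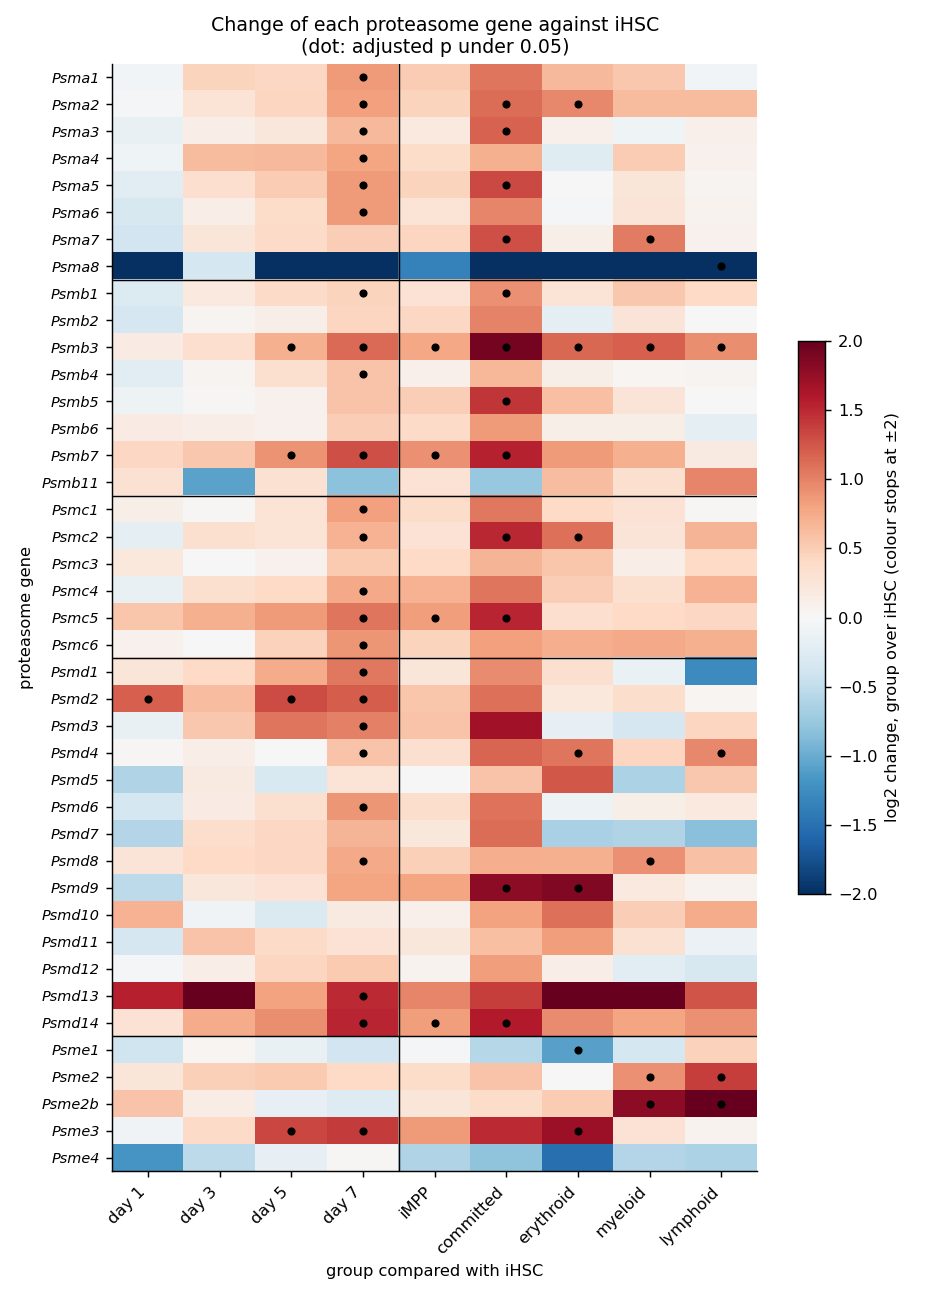
Log2 change (colour) of each of the 41 genes (rows) in each group over iHSC (columns), where dots mark an adjusted p under 0.05 and colours stop at 2 in both directions. The day 7 column holds 24 dots, of which 1 lies in the Psme block, and Psmb3 has a dot in all 5 steady state columns.

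Other genes of the ubiquitin-proteasome pathway were read in the same day 7 fit. Of 8 particle and associated genes outside the Psm names 4 rose and 0 fell: Uchl5, a cap deubiquitinase (log2 1.59), its anchor and ubiquitin receptor Adrm1 (0.92), the cap deubiquitinase Usp14 (0.81) and the lid subunit Shfm1 (0.76). Of 6 assembly genes Pomp, the chaperone of the core, rose (0.48, adjusted p = 0.0482). Of 7 genes of the transcription factor axis, which include Nfe2l1 and Nfe2l2, 0 were called, and of the 3 immunoproteasome genes 0 were called. The summed level of Psmb8, Psmb9 and Psmb10 was 1070 CPM on day 7 and 955 CPM in iHSC (medians).

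The share of the 41 genes with a count in a cell was read after thinning each cell to 20000 counts. The median over libraries was 56.6% in iHSC (unthinned 81.5%), 68% on day 1, 70.8% on day 3, 79.4% on day 5 and 80.5% on day 7 (unthinned 92.0%). Every day 7 library (65.4 to 84.9%) lay above every iHSC library (47.8 to 62.6%). The same share over all genes at the thinned depth was not read, so these values do not single out the members. Without thinning, the number of genes per cell also differed, at 6705.5 on day 7 and 4270.75 in iHSC (medians of library medians). Lymphoid cells had the lowest share among the classes, with 39% (unthinned 65.4%).

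In steady state iMPP, 4 members were higher than in iHSC and 0 lower, against 10.2% of all genes tested (4.86% higher, 5.39% lower). Psmb7 was 122 to 489 CPM (median 249) in iMPP and 51.1 to 195 CPM (median 131) in iHSC (log2 0.92, adjusted p = 0.00168), in values scaled within the fit of all steady state classes. Psmb3 was 199 to 774 CPM (median 512) in iMPP and 143 to 565 CPM (median 237) in iHSC (log2 0.78, adjusted p = 0.00553). Psmd14 and the ATPase gene Psmc5 had log2 changes of 0.83 each (adjusted p = 0.0286 and 0.0264). For Psmb7 and Psmb3 the values of both groups overlapped. The voom fit called 19 members, with a median change of 0.53 over the members and -0.02 over all genes. The fit without libraries holding 2 classes called 1. Refits called 2 members without the iMPP library L52 or the iHSC library L73, 7 without L1 and 8 without L14, both iHSC libraries. The median member change was 0.37, against -0.11 over all genes.

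Day 7 cells were also compared with iMPP, a comparison added after the values were seen. Psmd2, Psmb4 and Psma6 were higher on day 7 and 0 members were lower, against 4.71% of all genes (3.09% higher, 1.62% lower). Psmd2 was 147 to 273 CPM (median 181) on day 7 and 93.3 to 164 CPM (median 122) in iMPP (log2 0.63, adjusted p = 0.0192). The log2 changes of Psmb4 and Psma6 were 0.45 and 0.56. The calls were lost without L55, a day 7 library of 5 cells, and without the libraries holding 2 groups, and 1 was made without L58. The call of Psma6 was made in 3 of 9 settings and 3 of 10 refits without 1 library.

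Committed progenitors had the highest core sums of the steady state, with a median of 8948 CPM. In this class 12 members were higher than in iHSC and 0 lower, against 4.29% of all genes tested (3.24% higher, 1.05% lower). Of the 12, 8 were core and 4 cap genes. Psmb3 was 1211 CPM in L15, which held MEP, and 836 CPM in L17, which held CMP and GMP, against 143 to 565 CPM in iHSC (log2 1.91, adjusted p = 0.000272). Psmb7 was 461 and 302 CPM (log2 1.55), Psmd14 328 and 202 CPM (log2 1.59), Psma7 1737 and 1266 CPM (log2 1.29) and the chaperone Psmd9 176 and 83.8 CPM (log2 1.79). Psmb5 was called here, with a log2 change of 1.43 (adjusted p = 0.0469). The refits called 0 members without L15, 2 without L17, and 0 without the libraries holding 2 classes. Each of these leaves 1 committed library, which is then assumed to vary like the other groups.

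Erythroid cells had 6 members higher and 1 lower than iHSC, against 15.2% of all genes tested (9.76% higher, 5.41% lower). Psmd9 was 126, 128 and 155 CPM in erythroid libraries, against 5.11 to 91.9 CPM in iHSC (log2 1.86, adjusted p = 0.00192), and this call held without each erythroid library in turn. Psme3 was 87.9, 104 and 135 CPM, against 10.7 to 68.5 CPM in iHSC (log2 1.72, adjusted p = 0.0142). The lower gene was Psme1, at 146, 198 and 410 CPM, against 359 to 818 CPM in iHSC (log2 -1.08, adjusted p = 0.0182). The remaining 4 were Psmb3 (1.15), Psmc2 (1.10), Psmd4 (1.07) and Psma2 (0.96). Each refit without 1 erythroid library called 3 members. The erythroid libraries are those with the high granulocyte-marker counts given above, and the part of these counts in the result was not tested. Without the cells over 5% of such counts the median member change was 0.55, against -0.66 over all genes. With them it was 0.39, against -0.42 over all genes.

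Outside the Psm names erythroid cells showed Psmf1, an inhibitor of the core (log2 2.44), Mafg, a partner of Nfe2l1 (2.92), and Shfm1 (1.98) as higher, and Nfe2l1 as lower (-2.40, adjusted p = 0.0205). Psmf1 averaged 254 CPM in erythroid cells and 46.8 CPM in iHSC.

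Myeloid cells had 5 members higher and 0 lower than iHSC, against 12.2% of all genes tested (7.69% higher, 4.55% lower). Psmb3 was 593, 609 and 660 CPM in myeloid libraries, all above iHSC (log2 1.19, adjusted p = 0.00525). Psma7 was 1078, 1221 and 1471 CPM, against 305 to 1360 CPM in iHSC (log2 1.04, adjusted p = 0.00861). Psme2b (1.79), Psme2 (0.92) and Psmd8, a lid subunit (0.91), completed the list. Refits called 0 members without L12, 1 without L5 and 2 without L43.

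Lymphoid cells had 4 members higher and 1 lower than iHSC, against 15.8% of all genes tested (7.43% higher, 8.4% lower). Psme2 was 557, 589, 913 and 977 CPM in lymphoid libraries, against 167 to 540 CPM in iHSC, with no overlap (log2 1.38, SE 0.28, adjusted p = 0.000441). Psme2b was 77.4, 82.5, 121 and 139 CPM, against 4.24 to 24.6 CPM in iHSC (log2 2.86, SE 0.45, adjusted p = 1.7e-05). Both calls held in all 9 alternative settings and without each lymphoid library, but the 2 genes share sequence and cannot be taken as 2 independent results. Psme1 was 461 to 1042 CPM in lymphoid cells and was not called (log2 0.47). Psmd4 (0.96) and Psmb3 (0.93) were also higher. Without L54, 3 members were called.

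The lower lymphoid gene was Psma8, with 4 counts over 4 lymphoid libraries, 2 of them at 0, and 966 counts over 12 iHSC libraries, 3 of them at 0. A fitted fold of so few counts depends on the prior count and is not given. Of the 3 immunoproteasome genes Psmb8 was higher in lymphoid cells (log2 1.01, adjusted p = 0.00742), at 999 CPM on average against 495 CPM in iHSC.

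**Figure D4:**
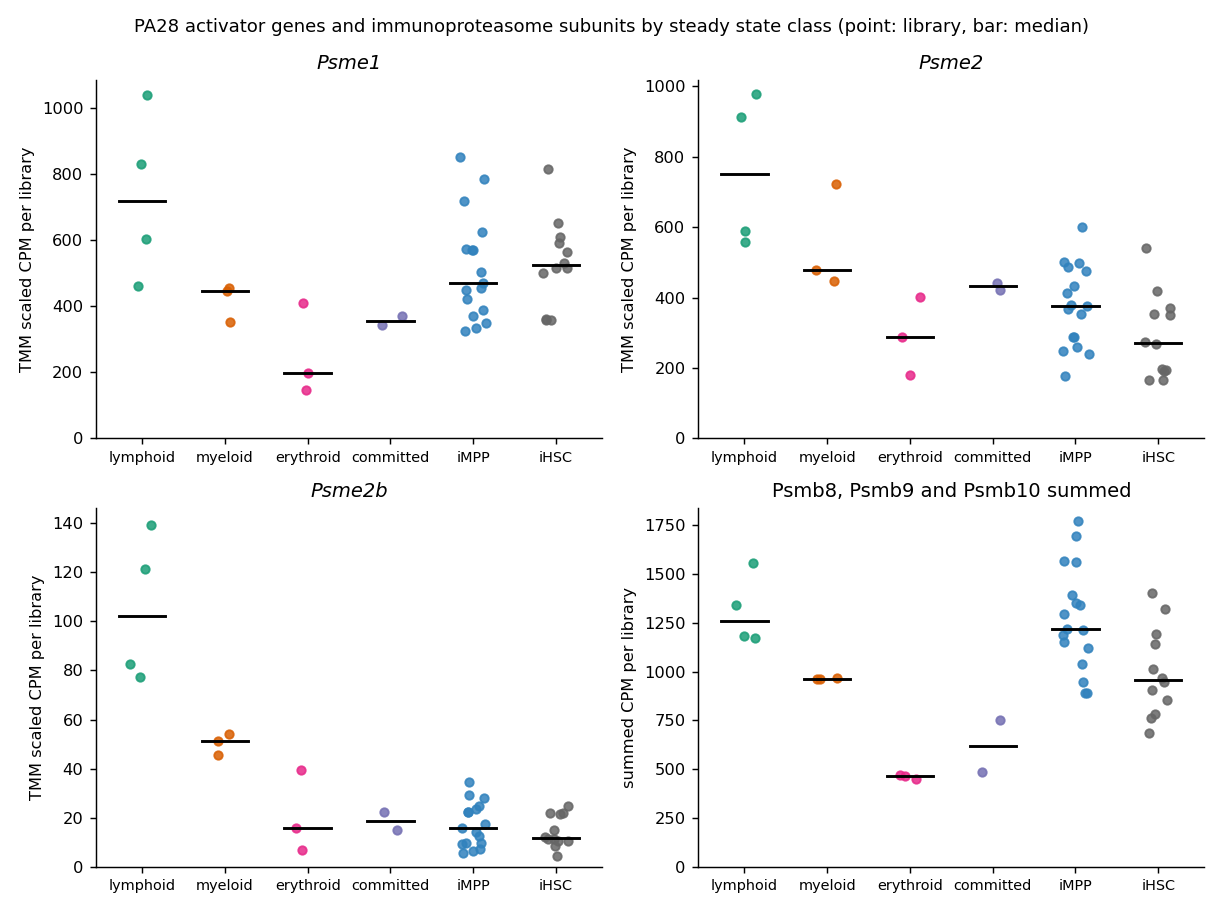
TMM-scaled CPM of Psme1, Psme2 and Psme2b and summed CPM of Psmb8, Psmb9 and Psmb10 (y axes) by steady state class (x axes), where each point is a library and each bar the median. All 4 lymphoid points lie above all iHSC points for Psme2 and Psme2b but not for Psme1.

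Over the 28 sorted populations the core sum was lowest in granulocytes (3072 CPM) and highest in MEP (9886 CPM) and CMP (8636 CPM), both of which came from 1 library each. MPP3 and MPP4 followed with 7549 and 7516 CPM, and the 5 stem cell gates stood between 4502 and 5360 CPM. The activator sum had another order, with EryA lowest (405 CPM) and CD4T (1600 CPM), CD8T (1541 CPM) and MPP4 (1356 CPM) highest. Over the 28 population medians Pearson's r of log2 values was 0.91 for core and cap, 0.34 for core and activators and 0.88 for activators and immunoproteasome genes. These points share libraries and the total of each sum, and r is a description.

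**Figure D5:**
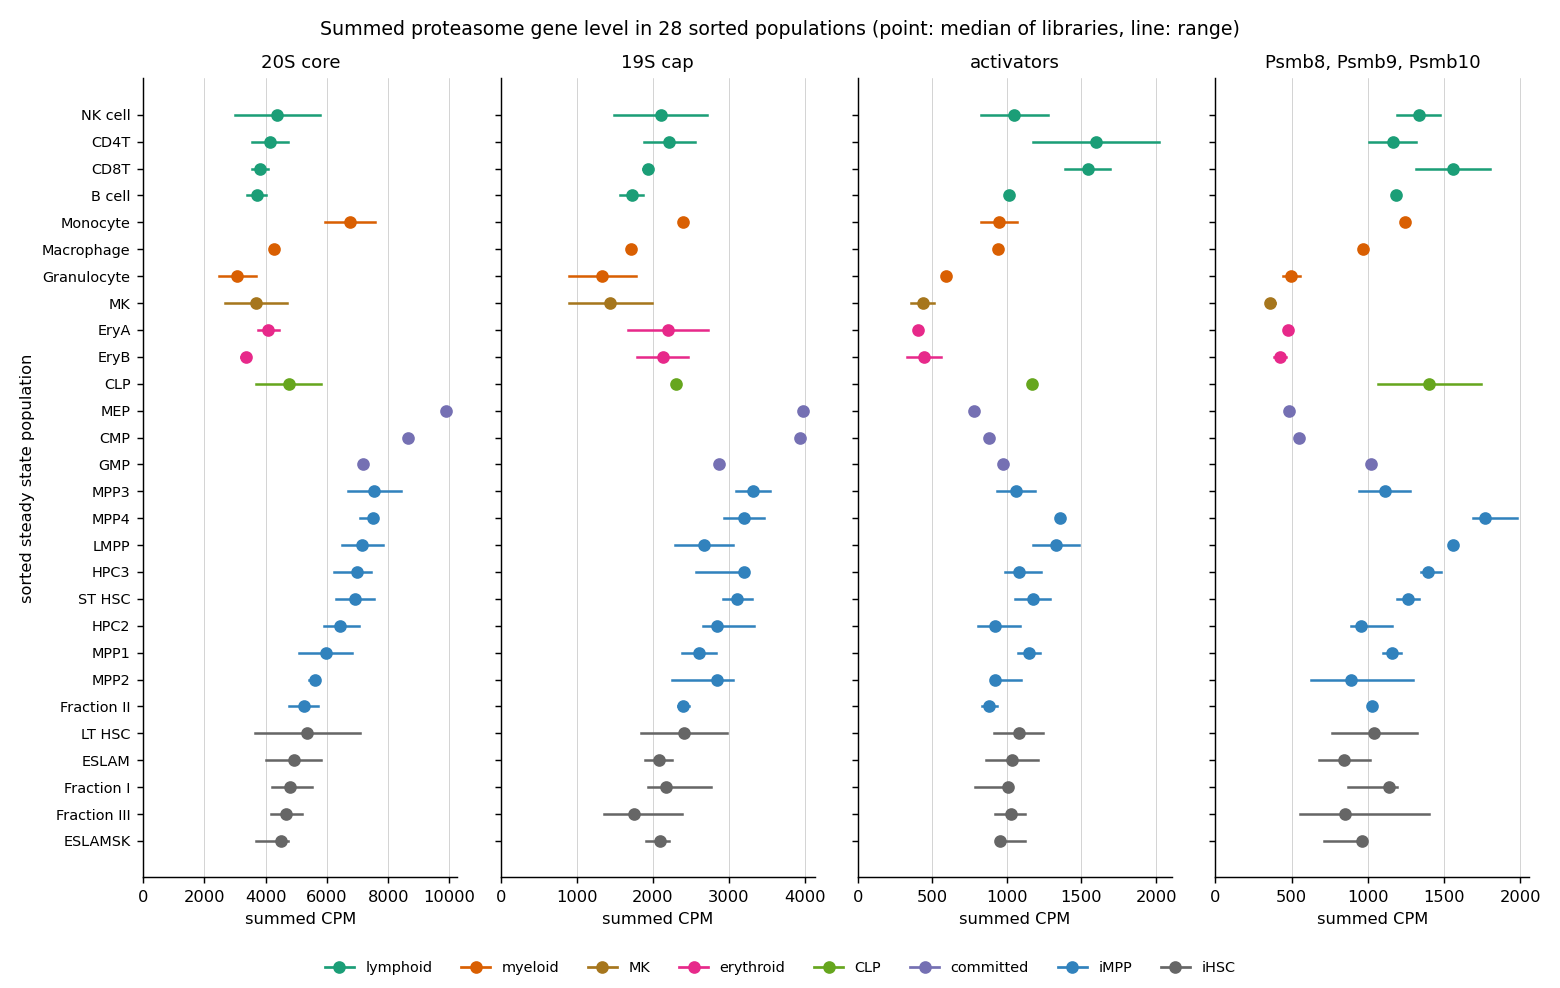
Summed CPM (x axes) of core, cap, activator and immunoproteasome genes in 28 sorted populations (rows), where points are medians over libraries, lines the range, and colours the class. The core is highest in MEP (9886 CPM) and the activators in CD4T (1600 CPM).

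The order of classes depended on the scaling. In plain CPM the core sum was 3733 in erythroid, 5058 in myeloid and 3976 in lymphoid cells, against 4742 in iHSC. With TMM scaling it was 5723 in erythroid, 6343 in myeloid and 5095 in lymphoid cells, against 4390 in iHSC, so that erythroid and lymphoid cells changed sides for the core. The myeloid cap moved from below iHSC (1856 against 2108 CPM) to above it (2303 against 1806 CPM), as did the erythroid and lymphoid caps. Myeloid activators moved likewise, from 881 against 987 CPM to 1060 against 883 CPM. For the core, committed progenitors and iMPP stood above iHSC on both scales (TMM 9865 and 6330 CPM). Erythroid activators stood below iHSC on both scales (TMM 600.2 CPM against 883 CPM).

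Single genes had their own order over the populations. Psmb7 ranged from 44.9 CPM in B cells to 390 CPM in MEP, and Psmd14 from 35.6 CPM in Fraction III to 278 CPM in MEP. Psme3 was lowest in B cells (4.86 CPM) and highest in GMP (127 CPM) and MPP2 (124 CPM). Psme4 was highest in the gate LT HSC (102 CPM) and lowest in NK cells (2.98 CPM). Psma8 reached 62.3 CPM in LT HSC and 38.4 CPM in Fraction II. Most populations had 1 or 2 libraries, so neighbours in these orders were not told apart.

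Predicted types were assigned by the authors from expression, so their levels are described without a test. On day 7 the core sum had a median of 8458 CPM in tMPP3 and 7373 CPM in tMPP2, against 3696 CPM in tGM1 and 3341 CPM in tME1. The steady state cells of the last 2 types had 2975 CPM in tGM1 and 2760 CPM in tME1. In steady state tHSC1 had 4100 CPM, tMPP1 5323, tMPP2 5886, tMPP3 7997 and tCP1 9323 CPM. Within tMPP2 the core sum was 6978 CPM on day 1 (1 library of 13 cells), 6035 on day 3, 7012 on day 5 and 7373 on day 7, so that day 1 stood about level with day 5. Psmd14 in tMPP2 was 210 CPM on day 1, 186 on day 3, 207 on day 5 and 247 on day 7. Psme1 in tMPP2 was 759 CPM on day 1, 667 on day 3, 535 on day 5 and 468 on day 7.

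Origin was tested within 2 predicted types. In tMPP2, 0 of 41 members were called between transplanted (18 libraries) and steady state cells (8 libraries), against 0.707% of all genes (0.396% higher, 0.311% lower). At an unadjusted edgeR p under 0.05, 13 members passed, all higher. The share of all genes at that unadjusted threshold is not given here, so the 13 cannot be set against it. DESeq2 called 4 and the voom fit 2. The gene nearest to the threshold was Psmd13, at 17.9 to 178 CPM in transplanted and 6.66 to 53.1 CPM in steady state cells (log2 1.58, adjusted p = 0.0642). The transplanted libraries numbered L77 to L89 held 54.3 to 178 CPM and those numbered L47 to L72 held 17.9 to 56.1 CPM, which overlapped the steady state range. The median member change was 0.31, with Psmb7 at 0.27, Psmd14 at 0.32, Psme2 at 0.52 and Psmb5 at 0.13. In tMPP1, 0 of 40 members tested were called, against 0.494% of all genes (0.271% higher, 0.223% lower), while DESeq2 called 1 and the voom fit 3. At an unadjusted edgeR p under 0.05, 10 members passed (9 higher, 1 lower), again without the share of all genes. The lowest p in tMPP1 was that of Psma4, at 278 to 665 CPM in transplanted and 168 to 372 CPM in steady state cells (log2 0.70, adjusted p = 0.162). A p that misses the threshold does not show that the origins were alike.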

How the data were processed

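Single-cell counts per gene were deposited by the authors as whole numbers; per the submitters' processing notes TopHat, HTSeq and mm10 were used, with no versions given. Whether the counts are reads or molecules, and whether strand was used, is not given in the sources used here. Cell populations, days and predicted types came from the deposited annotation. Counts were summed per library and group (at least 5 cells), and the library was the replicate. The labels do not tie libraries to animals, so p-values measure the spread between libraries, which may be technical. edgeR 4.0.16 (filterByExpr, TMM, quasi-likelihood test, Benjamini-Hochberg over all genes tested, adjusted p under 0.05) was fitted once over iHSC and the days, once over the steady state classes, and within tMPP1 and tMPP2; day 7 against iMPP used a further fit. Values of single genes are TMM-scaled CPM within their fit, so iHSC values differ between fits; values by population or predicted type and sums of subcomplexes are plain CPM. DESeq2 1.42.0 and limma 3.58.1 gave alternatives. The steps, other than the day 7 against iMPP fit, were tested on simulated data. These had a smaller spread than the real data and larger planted changes than most members showed. That run therefore does not show how well changes of the size reported here are found. Members and lists were chosen with earlier results of these data known. Named genes were all called members where at most 8 were called, otherwise the 4 largest changes in each direction and the 4 smallest p, plus representatives of each role. In all, 120 transplanted cells from 3 libraries of pooled days entered no day comparison. Genes were placed with GENCODE positions on GRCm38 (mm10). Doublets were not called. Some genes of the ubiquitin pathway list are not reported here.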

Additional observations from a re-analysis of the deposited data

Results flagged for a closer look

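Of 73 groups of values examined, 8 held a library whose gap to its neighbour was large for the range of its group. A rate of about 1 in 20 would hold for independent, normally distributed values. These values were not shown to be so, and L66 and L78 recur, so the 8 cannot be set against that rate. On day 5, Psmd2 was 388 CPM in L66 (next 190 CPM), Psmd1 was 44.7 CPM in the same library (next 139 CPM), and Psmd11 was 131 CPM in L86 (next 77.4 CPM). On day 7, Psmb7 was 572 CPM in L49 (next 403 CPM), and in L78 Psmd13 was 112 CPM (next 70.7 CPM) and Psmd4 378 CPM (next 271 CPM). In lymphoid cells Psmb5 was 148 CPM in L54 (next 344 CPM) and Psmc4 294 CPM in L2 (next 188 CPM).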

How the results depend on the processing

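No paired analysis was possible because the replicate numbers only follow accession order. Some libraries hold sums of 2 groups, and the voom fit takes the library as a block. No called value changed sign in any alternative. Numbers of members called follow, without the share of all genes called in the same setting, which is not given here. Day 7 against iHSC (24): 35 in voom, 17 with RLE, 19 in DESeq2, 16 without shared libraries, 15 with both groups alone, 15 to 27 without 1 library. Day 1 (1): 0 in voom, thinned, both groups alone, bone marrow and spleen libraries, and tHSC and tMPP cells; 0 to 1 without 1 library. Day 3 (0): 1 in voom, thinned, and bone marrow and spleen libraries. Day 5 (4): 21 in voom, 0 in bone marrow and spleen libraries, 8 in tHSC and tMPP cells. Day 7 against day 5 (0): 3 in voom. Day 7 against iMPP (3): 1 with RLE, 16 in voom, 0 without shared libraries, 6 alone, 0 in bone marrow and spleen libraries, 0 to 3 without 1 library. iMPP (4): 2 with RLE, 19 in voom, 1 without shared libraries, 2 to 8 without 1 library. Committed (12): 3 with RLE, 7 in DESeq2, 33 in voom, 4 thinned, 0 without shared libraries, 2 alone, 6 without cells high in granulocyte markers, 0 to 2 without 1 library. Erythroid (7): 2 alone, 3 without any 1 library. Myeloid (5): 3 with RLE, 2 without shared libraries, 1 alone, 0 to 2 without 1 library. Lymphoid (5): 8 with at least 10 cells, 8 thinned, 3 to 5 without 1 library. tMPP1 (0): 1 in DESeq2, 3 in voom, 2 thinned. tMPP2 (0): 4 in DESeq2, 2 in voom, 1 with no filter.

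With TMM scaling the summed CPM were, for core, cap and activators, 5723, 3073 and 600.2 in erythroid, 6343, 2303 and 1060 in myeloid, and 5095, 2509 and 1656 in lymphoid cells, and 4093 for the committed cap; the thinned myeloid core was 4355. Unthinned shares of members with a count were 81.5% in iHSC, 84.8% on day 1 (33.8 to 85.4%), 81.9% on day 3, 91.7% on day 5 and 92.0% on day 7. They were 91.3% in iMPP, 92.5% in committed, 81.5% in erythroid, 83.3% in myeloid and 65.4% in lymphoid cells. The cause of these differences was not tested.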
